A study of Mus musculus with 24 samples.

Results

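The exorbital lacrimal glands of female NOD mice that had received testosterone (T) were compared with those of female MRL/lpr mice given the same hormone. The samples labelled NOD testosterone and MRL/lpr testosterone were taken, 3 pools of each strain, and each pool was measured on a CodeLink (CL) and an Affymetrix (Affy) array, so that 12 of the 24 arrays of the series entered the comparison. The other 12 arrays hold placebo (P) pools of both strains and were used to ask whether a strain difference was also measured without the hormone. Pellets of vehicle or of 10 mg of T had been placed under the skin of intact adult females, at 17 to 18 weeks of age in MRL/lpr and 21 weeks in NOD mice. The sample labels give 18 days of treatment and 6 mice per pool for MRL/lpr, and 21 days and 2 to 4 mice per pool for NOD, whereas the methods give 20 to 21 days for both. Strain, age, length of treatment and mice per pool therefore cannot be told apart here. Because the same RNA preparations were applied to both platforms, a difference seen on both is a repeated measurement of the same 3 against 3 pools and not a second set of mice.

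MRL/lpr mice carry the lpr mutation of Fas, a receptor through which spent lymphocytes are made to die, and develop lymphoproliferation and inflammation of the lacrimal and salivary glands. NOD mice develop autoimmune diabetes and gland inflammation, and the 2 strains carry different haplotypes of the major histocompatibility complex (MHC). The lacrimal gland secretes the water, ions and proteins of the tear film from acinar and duct cells. Androgens act on it through the androgen receptor, a transcription factor, and in rodents they switch on families of secreted proteins such as the glandular kallikreins, which are serine proteases. Interferons, released by immune cells, induce a shared set of genes that includes GTPases active against intracellular pathogens, antiviral enzymes, MHC molecules and the chemokines that attract T cells.

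CL values are spot intensities divided by the array median. Between 47.1% and 60.9% of the spots on each array were marked near background. On CL the log2 signals of T pools of a strain correlated at 0.940 to 0.978. The Affy range was 0.925 to 0.989, and NOD T pool 1 stood apart from pools 2 and 3. The deposited Affy arrays were not on a common scale. Their trimmed means were 31.7, 25.8 and 22.1 for the MRL/lpr T pools and 43.2, 150.0 and 141.2 for the NOD T pools, and all were brought to 500 for the comparison. The highest probe set of each MRL/lpr T array then read from 147102 to 224666, and that of each NOD T array 116839, 44617 and 49556. After scaling the brightest probe sets were thus lower in NOD T as a body. As deposited, the highest readings were 9320.7, 9764.2 and 9949.4 in MRL/lpr T and 10091.2, 13382.6 and 13999.2 in NOD T. They were multiplied by 15.78, 19.37 and 22.58, and by 11.58, 3.33 and 3.54. Whether the brightest signals were capped on the arrays was not tested. Among the 200 brightest Affy probe sets the median log2 difference was -0.91 under T and -0.15 under P, and 51.0% were called lower, while among the 200 brightest CL probes the medians were -0.44 and 0.03 and 21.5% were called lower. The part of this brightness trend in results on very bright genes was not tested. Without scaling, the median over all Affy probe sets was 1.54 higher in NOD T, so every Affy difference given here is relative to that scaling.

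All differences are log2 values of NOD T minus MRL/lpr T (± SE), from a limma fit to the 4 groups of a platform. Values below a floor, 0.5 on CL and 70.5 on Affy, were raised to it first. A gene was called at a Benjamini-Hochberg adjusted p under 0.05 over all probes tested, 13615 on CL and 17854 on Affy, and p-values measure the spread between pools. Where every pool of the dimmer group was near background, the difference is a lower bound, given as "at least" a fold. It sets the mean of the brighter group against, on each dim array, either the probe's reading or the weakest reading marked as above background, whichever is larger. Differences under P and changes with T are given as fitted, so that where a group lay near background they depend on the floor.

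The strains differed widely under T. On CL, 758 probes were called higher in NOD T (5.57% of those tested) and 932 lower (6.85%). On Affy, 963 probe sets were called higher (5.39%) and 920 lower (5.15%). The split on Affy depended on the scaling, since 51.1% of the called probe sets were higher in NOD with the trimmed mean and 71.6% were with each array set to its own median (1196 higher and 475 lower). The Affy counts were 635 higher and 567 lower without MRL/lpr T pool 3, 624 higher without MRL/lpr T pool 2, and 201 higher and 171 lower when the T arrays were fitted alone. On CL the T arrays alone gave 484 higher and 643 lower. Of the genes described below, that fit lost the CL calls of Klk1b1, Smr2, Gbp2, Ifi47, Irgm1, Cxcl13 and Cd3g, the Affy calls of Slc9a3r1, Hspa5, H2-Ab1, H2-Eb1, Tap1, Klk1b1, Ltf, Gstm1, Irgm1, Ltb, Ms4a1, Klrk1, Klra17 and Mb, and both calls of Gbp3 and Cd79b (adjusted p = 0.0525 to 0.177). By the brightest probe of each gene, 534 of 8959 CL genes were higher (5.96%) and 634 lower (7.08%), and 594 of 10405 Affy genes were higher (5.71%) and 516 lower (4.96%). Both platforms tested 6808 genes, and both called 123 of them higher (1.81%) and 127 lower (1.87%). The 123 were 28.6% of the CL and 29.1% of the Affy calls, the 127 were 28% and 33.7%, and 11 genes higher and 7 genes lower on CL were called the opposite way on Affy.

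Most strain differences called under T on both platforms were not called on both under P, and some ran the other way. A gene not called under P is not thereby shown to be equal there. Between P pools, 53 of the same genes were called higher and 182 lower in NOD on both platforms. Of the 123 genes higher under T, 17 were also higher under P (13.8% of the T calls and 32.1% of the P calls) and 20 were lower under P (16.3% of the T calls and 11.0% of the P calls). Of the 127 genes lower under T, 36 were also lower under P (28.3% and 19.8%) and 1 was higher under P, Ly6f. The T and P comparisons share no array, but both use the spread of a probe fitted over all 12 arrays of a platform, so their tests are not independent. By platform, 409 CL genes were higher under P (4.57%) and 524 lower (5.85%), as were 184 (1.77%) and 426 (4.09%) on Affy. The test of the difference between the strain differences, which uses the T arrays again, called 406 CL genes upward (4.53%) and 356 downward (3.97%), and 376 (3.61%) and 101 (0.971%) on Affy. On both platforms it was called upward for 57 of the 123 genes higher under T, and downward for 12 of the 127 lower.

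**Figure D1:**
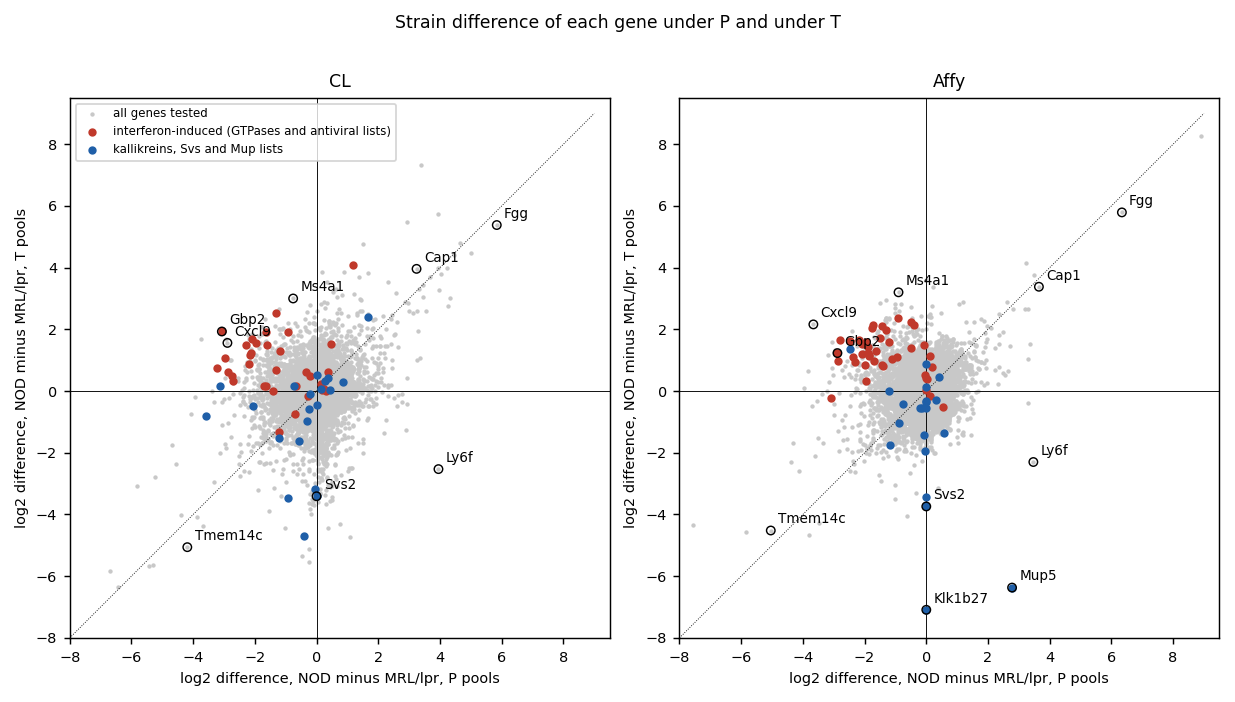
Each point is a gene, with the log2 difference NOD minus MRL/lpr between P pools on the x axis and between T pools on the y axis, for CL (left) and Affy (right), and the dotted diagonal marks equal differences. Fgg, Cap1 and Tmem14c lie near the diagonal, interferon-induced genes (red) lie mostly to the upper left, lower in NOD under P and higher under T, and Svs2 and Klk1b27 (blue) lie near 0 on the x axis and low on the y axis on Affy.

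Several genes differed between the strains by a large factor under both treatments. Fgg, the gamma chain of the clotting protein fibrinogen, read 4.10, 3.72 and 1.42 in the MRL/lpr T pools and 198, 127 and 62.4 in the NOD T pools on CL. The corresponding Affy values were 838, 694 and 291 in the MRL/lpr T pools and 52050, 22280 and 24580 in the NOD T pools. All NOD pools lay far above all MRL/lpr pools on both platforms, with differences of 5.38 ± 0.45 on CL (adjusted p = 1.15e-05), and the log2 difference on Affy was 5.79 ± 0.35 (adjusted p = 4.94e-09). Fgg was already apart between P pools and called higher in NOD on both platforms. In the MRL/lpr P pools Fgg read 0.243, 0.223 and 0.178 on CL and lay below the floor on Affy as well, so the size of the difference under P, and its change with T, were not measured.

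Cap1, a regulator of actin turnover, was near background in the MRL/lpr T pools on CL (0.97, 0.856 and 0.279) and read 11.2, 11.5 and 12.1 in the NOD T pools, at least 9.01-fold higher (adjusted p = 2.45e-06). On Affy its difference was 3.38 ± 0.38 (adjusted p = 1.72e-05). Both platforms thus kept the strains apart with no overlap. Mug1, a murinoglobulin of the protease inhibitor family of alpha-2-macroglobulin, was higher in NOD by 2.84 ± 0.31 on CL (adjusted p = 8.08e-05), and at least 6.36-fold on Affy (adjusted p = 7.13e-05). In the opposite direction, Tmem14c, a mitochondrial membrane protein needed for haem synthesis, read 2779, 2758 and 2850 in the MRL/lpr T pools and 215, 84.0 and 99.8 in the NOD T pools on Affy, a difference of -4.52 ± 0.30 (adjusted p = 1.49e-08). On CL the NOD T pools were near background, and Tmem14c was at least 16.7-fold lower (adjusted p = 5.62e-08). D17H6S56E-5, a gene known here by its locus symbol alone, was lower in NOD on CL (-5.84 ± 0.50, adjusted p = 1.36e-05) as well as on Affy (-4.56 ± 0.29, adjusted p = 1.01e-08). Ndufs5, a subunit of respiratory complex I tested on Affy, read 3286, 2538 and 3532 in the MRL/lpr T pools and 285, 112 and 124 in the NOD T pools. It was lower (-4.29 ± 0.34, adjusted p = 2.54e-07). For these 5 genes the difference between P pools was called in the same direction on every platform that measured them, and the change with T was not called.

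**Figure D2:**
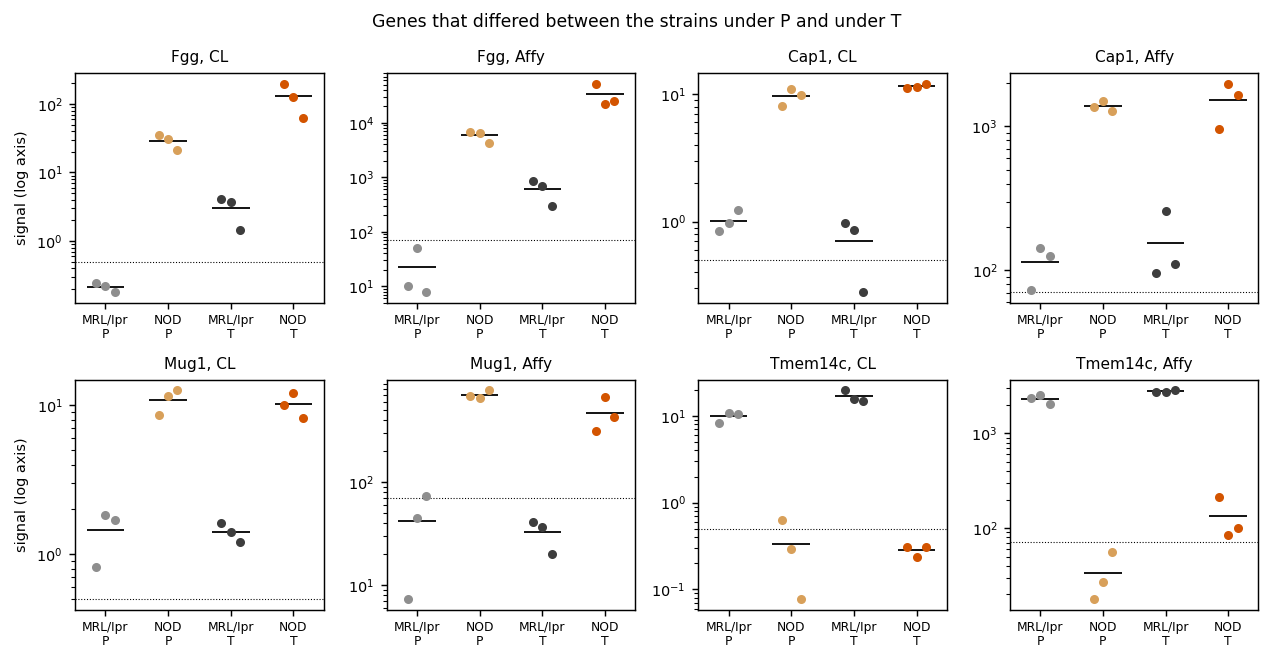
Signals of each pool (points) and group means (horizontal lines) for 4 genes on CL (spot intensity over the array median) and Affy (scaled intensity), on log axes, with the floor dotted. Fgg, Cap1 and Mug1 are higher and Tmem14c is lower in NOD than in MRL/lpr pools under P and under T.

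The 2 platforms disagreed on some of the largest differences, and such single-platform values are given as measurements of 1 probe. Whether the sequences of the strains differ under a probe was not tested for any gene here. That holds for these genes, for those above and for all below, among them the MHC and Klra genes. Rps9, a protein of the small ribosomal subunit, read 195, 191 and 238 in the MRL/lpr T pools and 3.66, 4.50 and 4.06 in the NOD T pools on CL, a difference of -5.67 ± 0.25 (adjusted p = 9.03e-08). On Affy the Rps9 pools of the strains overlapped (13610, 16150 and 18030 in the MRL/lpr T pools and 16200, 12290 and 13360 in the NOD T pools; -0.19 ± 0.20, adjusted p = 0.576). Hspa5, the chaperone BiP of the endoplasmic reticulum, was higher on CL by 4.47 ± 0.32 (adjusted p = 4.03e-06) and lower on Affy (-1.28 ± 0.31, adjusted p = 0.0132), a call that was lost without MRL/lpr T pool 2 (adjusted p = 0.0549). The Affy call of Hspa5 was also lost with quantile normalization (-0.78, adjusted p = 0.173), with cyclic loess (-0.76, adjusted p = 0.161), with each array set to its own median (adjusted p = 0.0776) and with no filter on dim probe sets (adjusted p = 0.0587). Slc9a3r1, a scaffold protein under the apical membrane, was at least 36.0-fold lower on CL (adjusted p = 9.45e-07) and 2.00-fold lower on Affy (adjusted p = 0.0109), where the call was lost with each array set to its own median (adjusted p = 0.114). On CL, the differences of Rps9, Hspa5 and Slc9a3r1 between P pools were -5.44, 5.02 and -5.31. BC018473, an expressed sequence with no role given, read 4.74, 7.75 and 106 in the MRL/lpr T pools and 35350, 20000 and 21660 in the NOD T pools on Affy (adjusted p = 1.58e-12). Because 2 of the MRL/lpr T readings lay below the floor, the size of the difference depended on it and ranged from 7.46 to 9.34 over the alternatives. The gene was also called higher in NOD under P.

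Genes that mark the strains were examined next. Fas, the gene that the lpr mutation disrupts, read 0.174, 0.27 and 0.549 in the MRL/lpr T pools and 1.45, 1.36 and 1.30 in the NOD T pools on CL. All NOD T pools lay above all MRL/lpr T pools, which were near background, so that Fas was at least 1.06-fold higher in NOD (adjusted p = 6.04e-05). On Affy most Fas readings were below or close to the floor (86.8, 7.75 and 11.3 in the MRL/lpr T pools and 215, 86.3 and 71.2 in the NOD T pools), and the difference was not called (0.54 ± 0.32, adjusted p = 0.317). H2-Ea, a class II chain that NOD mice do not express, read 144, 54.2 and 115 in the MRL/lpr T pools and 67.2, 23.3 and 12.7 in the NOD T pools on Affy, with overlap and no call (adjusted p = 0.245).

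MHC genes held some of the most extreme values of the comparison. The class I molecules present peptides to cytotoxic T cells and are encoded by closely related copies, so a probe may read several of them. H2-K1, a classical class I chain measured on Affy, read 2271, 3688 and 3751 in the MRL/lpr T pools and 46140, 28650 and 26810 in the NOD T pools, with no overlap and a difference of 3.38 ± 0.25 (adjusted p = 8.59e-08). Between P pools H2-K1 overlapped and was not called (0.21 ± 0.25, adjusted p = 0.785), and the change in the strain difference was 3.17 ± 0.35 (adjusted p = 4.37e-05). The brightest H2-D1 probe set was higher in NOD T by 4.16 ± 0.23 (adjusted p = 1.25e-09), but among its 9 probe sets some were called higher, some lower and some not at all. On CL, H2-T10 was at least 23.5-fold higher (adjusted p = 7.38e-07) and H2-Bl at least 62.8-fold higher (adjusted p = 0.000508), while H2-T23 was at least 45.2-fold lower (adjusted p = 5.62e-08). H2-Bl was dim and not called on Affy (-0.46 ± 0.36, adjusted p = 0.458). Tap1, which pumps peptides into the endoplasmic reticulum for class I loading, was higher in NOD T, at least 2.14-fold on CL (adjusted p = 0.00161), and the log2 difference on Affy was 1.74 ± 0.39 (adjusted p = 0.00943).

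Counts in this and all later gene lists stand against the shares over all genes. Those were 5.96% called higher and 7.08% lower on CL, and 5.71% and 4.96% on Affy. Of the genes for class I presentation, 6 of 18 were called higher and 2 lower on CL, and 4 of 19 were called on Affy, each higher (medians 0.43 and 0.54). Of those for class II presentation, which shows peptides to helper T cells, 5 of 14 were called on CL and 6 of 14 on Affy, each higher (medians 0.80 and 1.0). Under P the shares over all genes were 4.57% higher and 5.85% lower on CL, and 1.77% and 4.09% on Affy. The class I list then had 9 lower and 1 higher on CL and 8 lower and 1 higher on Affy (medians -0.93 and -0.75). The class II list had 6 lower and 1 higher on CL, and 6 on Affy, each lower (medians -1.03 and -0.97). The change with T was called upward for 11 class I and 10 class II genes on each platform, against 4.53% and 3.61% of all genes. H2-Ab1, the beta chain of the class II molecule A, read 1417, 1135 and 2335 in the MRL/lpr T pools and 2911, 6089 and 5119 in the NOD T pools on Affy, a difference of 1.53 ± 0.28 (adjusted p = 0.00229) without overlap. On CL the H2-Ab1 spot was near background in every MRL/lpr pool and the difference was at least 20.6-fold (adjusted p = 5.62e-08). Under P the platforms disagreed on H2-Ab1, which was called higher in NOD on CL, again against pools near background, and was -0.85 on Affy, not called. H2-Eb1, the beta chain of the class II molecule E, was higher on Affy by 1.41 ± 0.23 (adjusted p = 0.000753), and 0.75 ± 0.23 on CL (adjusted p = 0.054), a call made without NOD T pool 1 (0.97, adjusted p = 0.016). Counts in these lists moved with single pools. The class II count on CL was 8 without NOD T pool 1, and 3 without NOD T pool 2 or without MRL/lpr T pool 2, and the class I count on Affy was 7 without NOD T pool 1.

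Secreted proteins that are known androgen targets in rodent glands gave large differences in the other direction, lower in NOD T. Klk1b27, a glandular kallikrein, read 75.2, 63.9 and 97.1 in the MRL/lpr T pools and 2.90, 8.45 and 14.0 in the NOD T pools on CL. On Affy Klk1b27 read 12220, 12850 and 17160 in the MRL/lpr T pools and 11.6, 133 and 114 in the NOD T pools. Every NOD T pool lay far below every MRL/lpr T pool, on CL (-3.47 ± 0.72, adjusted p = 0.00763) as well as on Affy (-7.09 ± 0.31, adjusted p = 7.23e-11). All P pools of both strains were below the Affy floor for Klk1b27, so the strain difference was not measured without T there, and its change with T was called on Affy (adjusted p = 6.38e-08) but not on CL (adjusted p = 0.179).

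Svs2 and Svs4, secretory proteins of the seminal vesicle, followed the same pattern. Svs2 read 1425, 1149 and 515 in the MRL/lpr T pools on Affy, and all NOD T pools were below the floor (6.95, 27.0 and 45.7), at least 13.4-fold lower (adjusted p = 3.66e-06). On CL Svs2 was at least 5.79-fold lower (adjusted p = 2.09e-06). Svs4 stayed above the floor in NOD T pools and read 2293, 2933 and 2558 in the MRL/lpr T pools and 206, 409 and 166 in the NOD T pools on Affy. The difference was -3.42 ± 0.35 (adjusted p = 6.11e-06) there and -3.17 ± 0.36 on CL (adjusted p = 0.00012), with both strains below or close to the floor under P. Mup5, a major urinary protein that carries pheromones, read 115400, 131400 and 170400 in the MRL/lpr T pools and 2408, 580 and 3248 in the NOD T pools on Affy. The MRL/lpr values were among the highest on those arrays, and the difference was -6.37 ± 0.75 (adjusted p = 3.38e-05), against 2.78 between P pools (adjusted p = 0.0385). Major urinary proteins and kallikreins are families of near-identical copies, and which copy a probe reads was not tested.

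Not every kallikrein was lower. On Affy 3 of 9 were called lower and 1 higher, and on CL 3 of 8 were called, each lower (medians -0.56 and -0.70; with Affy signals as deposited the median was 1.26). The gene called higher on Affy was Klk1b1, which was 0.87 ± 0.24 (adjusted p = 0.0291) there and -0.97 ± 0.26 on CL (adjusted p = 0.0324), an opposite call. The Klk1b1 call on Affy was lost without MRL/lpr T pool 2 (0.68), NOD T pool 1 (0.80) or NOD T pool 2 (0.80), and that on CL without MRL/lpr P pool 3 (-0.97), MRL/lpr T pool 1 (-1.05), MRL/lpr T pool 3 (-0.78) or NOD T pool 1 (-0.66). Settings ended these calls as well. On CL the Klk1b1 call was lost with quantile normalization (-0.58, adjusted p = 0.186), raw intensities (-0.56), no filter on dim probes, the pool number as a replicate block (adjusted p = 0.0503) and the methods' t-test, and on Affy with the floor halved (adjusted p = 0.0781) and with cyclic loess (adjusted p = 0.0559). The CL count of kallikreins was 1 without MRL/lpr T pool 3. In the list of seminal vesicle and prostate proteins 4 of 13 genes were called lower and 1 higher on CL, and 4 of 10 on Affy, each lower (medians -0.11 and -0.48, but 0.01 on CL with quantile normalization and 0.28 on Affy with signals as deposited).

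**Figure D3:**
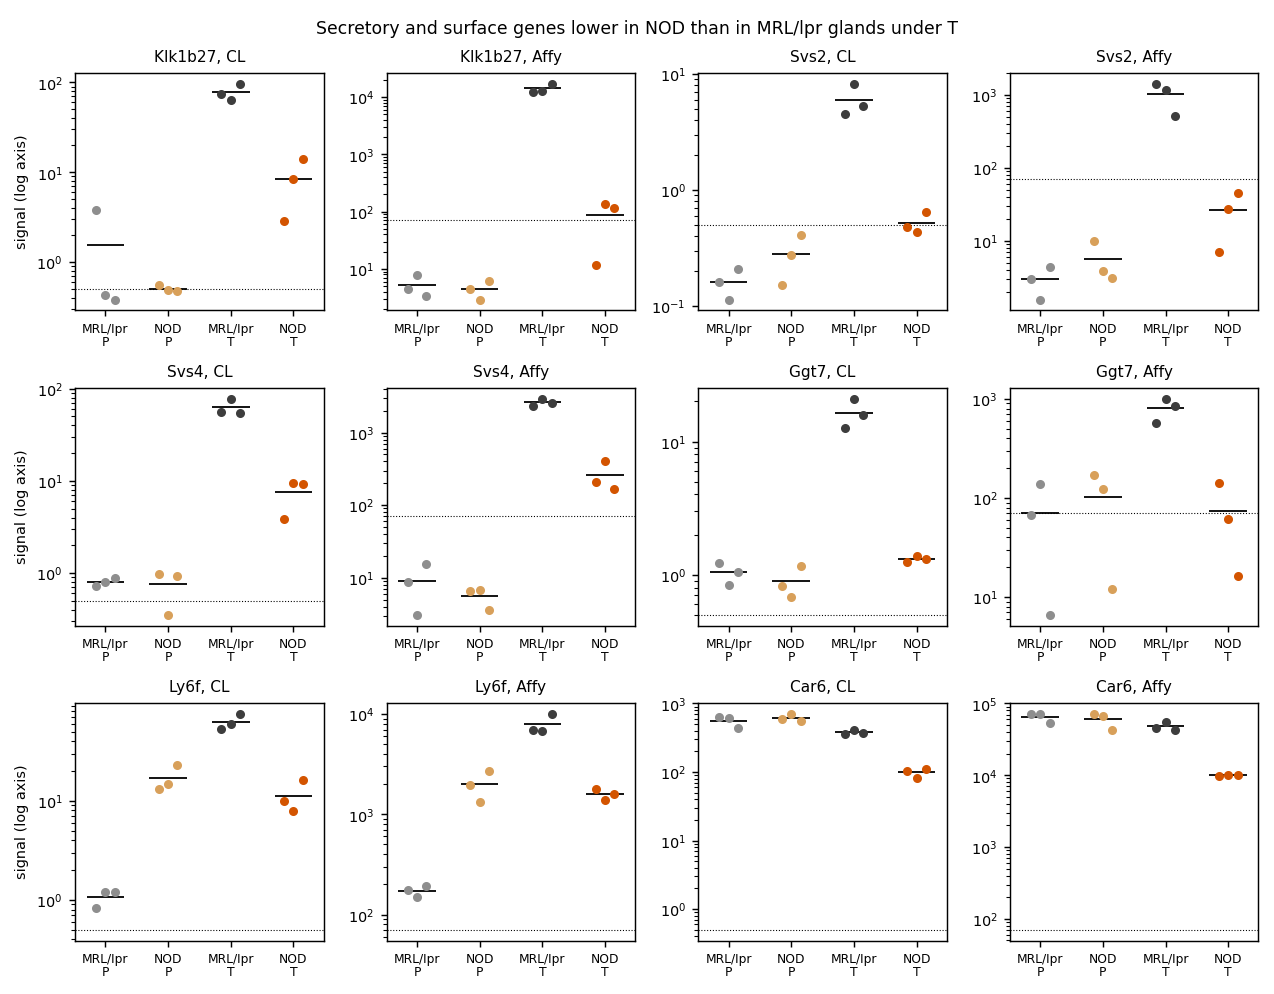
Signals of each pool (points) and group means (horizontal lines) on log axes for 6 genes on CL and Affy, with the floor dotted. Klk1b27, Svs2, Svs4 and Ggt7 are highest in the MRL/lpr T pools, Ly6f is higher in NOD than in MRL/lpr under P and lower under T, and Car6 overlaps under P and is lower in NOD under T.

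Further genes were high in the MRL/lpr T pools and low in the other groups. Ggt7, a gamma-glutamyltransferase, read 12.6, 21.0 and 15.7 in the MRL/lpr T pools and 1.24, 1.38 and 1.32 in the NOD T pools on CL, a difference of -3.62 ± 0.26 (adjusted p = 4.01e-06). On Affy Ggt7 was lower (-3.15 ± 0.44, adjusted p = 0.00018), and the strain difference changed with T on both platforms (adjusted p = 0.000344 and 0.0023). Prol1, a proline-rich lacrimal secretory protein measured on Affy, was 16.7-fold lower in NOD T (-4.06 ± 0.45, adjusted p = 1.75e-05). Hsd3b5, a steroid dehydrogenase tested on CL, read 4.63, 7.10 and 15.3 in the MRL/lpr T pools and 0.379, 0.469 and 0.486 in the NOD T pools. The NOD T pools were near background, and Hsd3b5 was at least 7.95-fold lower (adjusted p = 1.33e-05).

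Csn1s2a and Slc26a3 were called on CL and not on Affy. Csn1s2a, a milk casein, was 26.1-fold lower on CL (-4.71 ± 0.52, adjusted p = 9.21e-05) and not called on Affy (0.45 ± 0.38, adjusted p = 0.49). Slc26a3, an exchanger of chloride for bicarbonate, was at least 7.97-fold lower on CL (adjusted p = 0.000166), and the log2 difference on Affy was -0.50 ± 0.24 (adjusted p = 0.204), where the call was made without MRL/lpr T pool 1 (-0.74, adjusted p = 0.029).

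Ly6f, a surface protein of the Ly6 family anchored by a lipid, changed sides between the treatments. It read 0.835, 1.20 and 1.21 in the MRL/lpr P pools and 13.3, 14.8 and 22.8 in the NOD P pools on CL. Under T it read 53.5, 59.9 and 76.1 in the MRL/lpr T pools and 9.88, 7.82 and 16.3 in the NOD T pools on the same platform. NOD was higher by 3.95 under P (adjusted p = 9.41e-06) and lower under T (-2.53 ± 0.30, adjusted p = 0.000159), with no overlap in either. The Affy values were 3.47 under P and -2.30 ± 0.24 (adjusted p = 9.27e-06) under T, and the change in the strain difference was -6.48 ± 0.43 on CL (adjusted p = 2.45e-05), and the log2 difference on Affy was -5.77 ± 0.34 (adjusted p = 6.38e-08).

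Several secreted proteins of tears and mucosae, picked after their values were seen, were lower in NOD T glands. Car6, the secreted carbonic anhydrase of tears and saliva, read 363, 407 and 376 in the MRL/lpr T pools and 102, 82.8 and 111 in the NOD T pools on CL. All NOD T pools lay below all MRL/lpr T pools, a difference of -1.96 ± 0.20 on CL (adjusted p = 4.29e-05), and the log2 difference on Affy was -2.26 ± 0.26 (adjusted p = 2.62e-05), while P pools overlapped (0.14 and -0.14). Dmbt1, a mucin-like protein that binds bacteria, read 15130, 15200 and 17920 in the MRL/lpr T pools and 1384, 1553 and 1303 in the NOD T pools on Affy. Dmbt1 was lower (-3.51 ± 0.23, adjusted p = 1.33e-08) there and on CL (-2.60 ± 0.30, adjusted p = 0.000128), and the strain difference under P was smaller (-1.02 and -0.77).

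Ltf, the iron-binding tear protein lactoferrin, was lower in NOD on CL (-1.53 ± 0.31, adjusted p = 0.00655) as well as on Affy (-1.51 ± 0.28, adjusted p = 0.00223), and a like difference was measured under P (-1.75 and -1.08). Azgp1, a secreted lipid-binding glycoprotein, behaved alike, with -1.52 and -1.76 under T and -1.23 and -1.18 under P. So did Slc12a2, the cotransporter that loads chloride into acinar cells for fluid secretion, which was lower on CL (-1.68 ± 0.30, adjusted p = 0.00303) as well as on Affy (-1.73 ± 0.19, adjusted p = 1.49e-05). Its differences under P were -1.51 and -1.37. Smr2, an androgen-regulated product of the submandibular gland, was higher in NOD T by 1.28 ± 0.35 on CL (adjusted p = 0.0315), and the log2 difference on Affy was 1.30 ± 0.20 (adjusted p = 0.000628). The CL call of Smr2 was lost without MRL/lpr T pool 1 (1.33), 2 (1.16) or 3 (1.36) and without NOD T pool 2 (1.15) or 3 (0.94), with no filter on dim probes and in the methods' t-test.

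Of the marker genes of lacrimal acinar and duct cells, 4 of 18 were called on CL and 9 of 22 on Affy, each lower in NOD T. Their median was -0.30 on CL and -0.75 on Affy, where signals as deposited gave 0.98, and 5 were called without MRL/lpr T pool 1, 4 without MRL/lpr T pool 3 and 3 with each array set to its own median. The summed signal of the list ranged from 900.6 to 920.5 in MRL/lpr T and from 531.6 to 643.9 in NOD T pools on CL. A strain difference in this list was also measured under P. There 4 of 18 were called on CL and 5 of 22 on Affy, each lower in NOD (medians -0.69 and -0.41). The CL sums ranged from 1088 to 1328 in MRL/lpr P and from 520.4 to 766.7 in NOD P pools. In whole glands, fewer cells of a type and less RNA per cell cannot be told apart. Among channels and transporters of fluid secretion, 3 of 23 genes were called on CL, each lower, and 5 of 28 lower and 1 higher on Affy (medians -0.18 and -0.29, and 1.05 with Affy signals as deposited). Under P 1 of these was called lower and 1 higher on CL, and 4 lower and 1 higher on Affy.

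The secretory lists hold many bright genes, and the brightness trend given above ran in the same direction. Cytosolic ribosomal proteins, which are bright in any tissue, were also lower, 14 of 51 on CL and 20 of 40 on Affy, where 1 was higher (medians -0.58 and -0.90, and 0.98 with Affy signals as deposited). With quantile normalization 4 ribosomal proteins were called lower on CL and 5 on Affy, and 1 was higher on each (medians -0.17 and -0.19). For the acinar and duct markers it gave 4 lower and 1 higher on CL and 8 lower on Affy (medians -0.13 and -0.82). The ribosomal count was 9 on CL without NOD T pool 2 or MRL/lpr T pool 3, and on Affy 11 without MRL/lpr T pool 3. Of the genes of the mitochondrial respiratory chain, 3 of 52 were lower and 1 higher on CL and 11 of 61 on Affy, each lower, where 7.08% and 4.96% of all genes were called lower, so that the CL count lay below the share over all genes (medians -0.27 and -0.35, but 0.01 on CL with quantile normalization and 1.53 with Affy signals as deposited). That Affy count was 17 without NOD T pool 1, 7 without MRL/lpr T pool 1 or 2, and 5 without MRL/lpr T pool 3, and that on CL was 5 without NOD T pool 3.

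Many genes induced by interferon were higher in NOD T than in MRL/lpr T glands, and many were lower in NOD than in MRL/lpr under P. Of the interferon-induced GTPases, 4 of 11 were called on CL and 7 of 11 on Affy under T, each higher in NOD (medians 0.75 and 1.21), where -0.03 and -0.06 were the medians of all probes. Between P pools 8 and 7 of them were called, each lower in NOD (medians -2.19 and -2.09), against 5.85% and 4.09% of all genes. The change in the strain difference was called upward for 8 and 9 of the 11, against 4.53% and 3.61% of all genes. Of the antiviral interferon-stimulated genes, 9 of 23 were called higher and 1 lower on CL, and 16 of 31 on Affy, each higher (medians 0.63 and 1.16), and 11 and 18 were called lower under P. The CL count of GTPases was 2 without NOD T pool 2 or without MRL/lpr T pool 1.

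Gbp2, a guanylate-binding protein that attacks the vacuoles of intracellular pathogens, read 2696, 3197 and 3204 in the MRL/lpr P pools and 474, 331 and 445 in the NOD P pools on Affy. Under T it read 1226, 1154 and 1079 in the MRL/lpr T pools and 2729, 3374 and 2141 in the NOD T pools. The NOD P pools were the lowest group and the NOD T pools lay above the MRL/lpr T pools, with differences of -2.88 ± 0.21 (adjusted p = 4.35e-08) and 1.23 ± 0.21 (adjusted p = 0.00105). On CL the differences were -3.07 ± 0.46 (adjusted p = 0.00141) under P and 1.93 ± 0.46 (adjusted p = 0.0168) under T, and the latter call was lost without NOD T pool 2 (1.63, adjusted p = 0.0737). Ifi47, an immunity-related GTPase, read 508, 535 and 718 in the MRL/lpr T pools and 1714, 1985 and 1743 in the NOD T pools on Affy, a difference of 1.64 ± 0.21 (adjusted p = 9.35e-05) without overlap. On CL Ifi47 was higher by 1.17 ± 0.26 (adjusted p = 0.0107), and P pools differed by -2.16 and -2.80. Gbp3 was higher by 1.92 ± 0.42 on CL (adjusted p = 0.0105), and the log2 difference on Affy was 2.38 ± 0.41 (adjusted p = 0.00138), and with the T arrays alone neither was called (adjusted p = 0.09 and 0.0662). Irgm1, a regulator of the other immunity-related GTPases, was higher by 1.21 ± 0.25 on Affy (adjusted p = 0.00473) and 0.87 ± 0.24 on CL (adjusted p = 0.0335), where leaving out MRL/lpr P pool 2, MRL/lpr T pool 1 or 3, or NOD T pool 2 or 3 gave 0.87, 0.92, 0.70, 0.76 and 0.75 and no call.

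Oasl2, an antiviral protein related to the oligoadenylate synthetases, read 257, 153 and 246 in the MRL/lpr T pools and 617, 1050 and 1063 in the NOD T pools on Affy, 2.05 ± 0.34 (adjusted p = 0.000897). On CL the MRL/lpr T pools were near background (0.381, 0.347 and 0.348) and the difference was at least 6.53-fold (adjusted p = 3.02e-06). Under P the platforms disagreed on Oasl2, which was called higher in NOD on CL (1.19) and lower on Affy (-1.76). Irf7, the transcription factor that drives the interferon response to viruses, was higher in NOD T on CL by 1.84 ± 0.32 (adjusted p = 0.00214), and was 0.75 ± 0.30 on Affy (adjusted p = 0.118). Of the interferon regulatory factors and STAT transcription factors, 6 of 21 were called higher and 2 lower on CL, and 2 of 21 on Affy, each higher.

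Interferon acts on many of the genes that it induces through a short DNA element near their start. Promoters of 300 bases (250 before to 50 after the start; RefSeq, mouse build GRCm38.p6) were searched on both strands for the interferon-stimulated response element, taken as TTTC, any 2 bases and TTTC again. It was found in 9 of 121 promoters of the genes higher in NOD T on both platforms (7.44%; 100 of the 123 genes had an entry), in 3 of 123 promoters of the genes lower on both (2.44%; 103 of 127 genes), and in 3.44% of all 32851 promoters. The gamma-activated sequence, as TTCNNNGAA, was in 7.44%, 5.69% and 8.3% of the same promoters. Gbp2 (chr3:142620413-142620712, + strand) held 1 match, which begins 59 bases before the start, and Gbp3 (chr3:142559794-142560093, + strand) and Irgm1 (chr11:48871371-48871670, - strand) each held 2 overlapping matches, the first at 45 and 30 bases. Another promoter listed for Gbp3 held none, nor did the promoters of Ifi47, Oasl2, Cxcl9, Tap1, Irf9, Uba7 and Epsti1, which were also higher in NOD T on both platforms. The 3 promoters are shown because they hold the element, and do not stand for the other genes. A match is a string of letters and no measurement of binding. The sequences run 5′ to 3′ with the matches in capitals.
Gbp2: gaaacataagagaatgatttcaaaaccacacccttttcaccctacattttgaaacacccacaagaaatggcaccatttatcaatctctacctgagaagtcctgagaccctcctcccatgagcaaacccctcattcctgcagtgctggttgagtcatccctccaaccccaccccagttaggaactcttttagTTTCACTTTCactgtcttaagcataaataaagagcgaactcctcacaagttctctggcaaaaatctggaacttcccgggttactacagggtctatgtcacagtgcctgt
Gbp3: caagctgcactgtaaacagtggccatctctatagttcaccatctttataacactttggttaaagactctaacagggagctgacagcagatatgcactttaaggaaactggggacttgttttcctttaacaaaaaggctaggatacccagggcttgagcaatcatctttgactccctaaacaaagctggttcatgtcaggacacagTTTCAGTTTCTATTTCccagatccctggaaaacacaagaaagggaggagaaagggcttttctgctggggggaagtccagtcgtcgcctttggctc
Irgm1: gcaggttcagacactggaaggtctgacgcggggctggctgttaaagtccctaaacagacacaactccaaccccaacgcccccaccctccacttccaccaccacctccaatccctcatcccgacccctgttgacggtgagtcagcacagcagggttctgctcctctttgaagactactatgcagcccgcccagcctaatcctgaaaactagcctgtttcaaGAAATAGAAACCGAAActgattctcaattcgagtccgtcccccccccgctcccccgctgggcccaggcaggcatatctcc

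Among the chemokines, Cxcl9 was lower in NOD under P and higher under T on both platforms. Cxcl9, which interferon induces and which attracts activated T cells, read 11.8, 16.1 and 9.70 in the MRL/lpr P pools and 1.55, 1.29 and 2.24 in the NOD P pools on CL. Under T it read 5.72, 4.42 and 6.75 in the MRL/lpr T pools and 11.1, 20.4 and 19.3 in the NOD T pools. The strain difference was -2.89 ± 0.30 (adjusted p = 0.000109) under P and 1.56 ± 0.30 (adjusted p = 0.00501) under T, and on Affy -3.66 and 2.16 ± 0.31 (adjusted p = 0.000249). No pools of the 2 strains overlapped in either treatment. Cxcl10, with the same receptor, was higher in NOD T by 1.85 ± 0.30 on CL (adjusted p = 0.00169), while the Affy value, 1.26 ± 0.40 (adjusted p = 0.0556), was called without NOD T pool 1 (1.56) or NOD P pool 3 (1.26). Under P Cxcl10 was called lower in NOD on CL, where the NOD P pools were near background, and not on Affy (-1.10, adjusted p = 0.151).

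Cxcl13, which draws B cells into lymphoid follicles, read 4.33, 2.48 and 3.88 in the MRL/lpr T pools and 8.10, 23.4 and 14.3 in the NOD T pools on CL, a difference of 2.01 ± 0.44 (adjusted p = 0.0108). On Affy Cxcl13 was higher by 2.60 ± 0.46 (adjusted p = 0.00173), and P pools of the strains were not called apart (-1.21 and -0.89). Ccl9, a chemokine of macrophages, was 1.97-fold higher in NOD T on CL (0.97 ± 0.20, adjusted p = 0.00584) and 3.45-fold higher on Affy (1.79 ± 0.20, adjusted p = 1.49e-05). Over the list, 8 of 32 chemokines were called higher and 2 lower on CL, and 6 of 28 higher and 1 lower on Affy, and the medians were near 0 (-0.06 and -0.01). Under P 13 of 32 and 5 of 28 were called, each lower in NOD. The count of higher chemokines was 5 on CL without NOD T pool 2, MRL/lpr T pool 1 or MRL/lpr T pool 2, and 3 on Affy without NOD T pool 3, MRL/lpr T pool 1 or MRL/lpr T pool 2. The 2 lower calls on CL were both lost without NOD T pool 1, MRL/lpr T pool 1 or MRL/lpr T pool 3, and 1 of them without NOD T pool 3 or MRL/lpr T pool 2. Among chemokine receptors, Ccr1, found on macrophages and neutrophils, was at least 5.69-fold higher on CL (adjusted p = 1.24e-06) and not called on Affy (0.18 ± 0.29, adjusted p = 0.739).

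**Figure D4:**
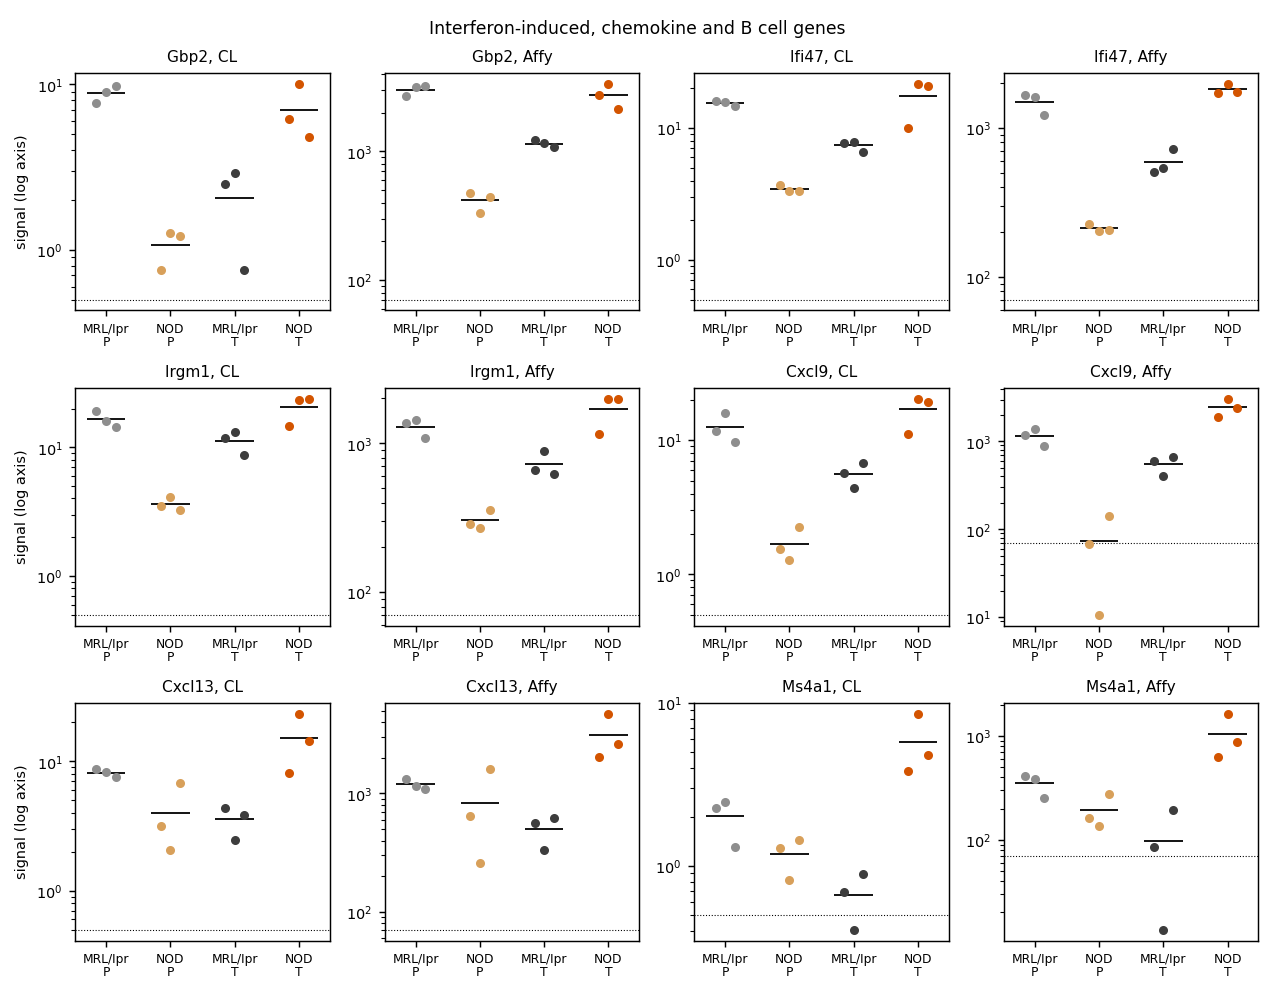
Signals of each pool (points) and group means (horizontal lines) on log axes for 6 genes on CL and Affy, with the floor dotted. For Gbp2, Ifi47, Irgm1 and Cxcl9 the NOD P pools are the lowest group and the NOD T pools lie above the MRL/lpr T pools, and for Cxcl13 and Ms4a1 the NOD T pools lie above the MRL/lpr T pools.

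Several markers of B cells were higher in NOD T. Ms4a1, the B cell surface protein CD20, read 0.691, 0.405 and 0.887 in the MRL/lpr T pools and 3.83, 8.60 and 4.81 in the NOD T pools on CL and 85.2, 13.6 and 194 in the MRL/lpr T pools and 632, 1651 and 873 in the NOD T pools on Affy. All NOD T pools lay above all MRL/lpr T pools, at least 4.20-fold on CL (adjusted p = 0.000208), and the log2 difference on Affy was 3.20 ± 0.44 (adjusted p = 0.000156). Cd79b, a signalling chain of the B cell receptor, was higher by 2.00 ± 0.37 on CL (adjusted p = 0.00378), and the log2 difference on Affy was 1.96 ± 0.37 (adjusted p = 0.00295), and with the T arrays alone neither was called (adjusted p = 0.062 and 0.0762). Ltb, a lymphotoxin that organizes lymphoid tissue, was at least 2.21-fold higher on CL (adjusted p = 0.00602), and the log2 difference on Affy was 2.31 ± 0.42 (adjusted p = 0.0021). For Ms4a1, Cd79b and Ltb the strain difference changed upward with T on both platforms. Of the B cell markers, 4 of 15 were called higher and 1 lower on CL and 10 of 16 on Affy, each higher (medians 0.63 and 1.51), and 2 were higher on CL without MRL/lpr T pool 2. The summed B cell signal ranged from 55.29 to 62.52 in MRL/lpr T and from 62.72 to 72.87 in NOD T pools on CL, and from 2729 to 3757 and from 7296 to 13130 on Affy.

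Of the T cell markers, 4 of 16 were called higher and 1 lower on CL and 4 of 18 on Affy, each higher (medians 0.52 and 0.58). The number higher on CL was 1 without NOD T pool 2, and 2 without MRL/lpr T pool 2 or 3, and on Affy it was 2 without NOD T pool 2, NOD T pool 3 or MRL/lpr T pool 3. Under P 4 T cell markers were called lower in NOD and 1 higher on CL, and 4 on Affy, each lower. Cd3g, a chain of the T cell receptor complex, read 2.90, 2.04 and 0.495 in the MRL/lpr T pools and 5.29, 10.1 and 6.83 in the NOD T pools on CL. The strains did not overlap there (2.32 ± 0.54, adjusted p = 0.0146), although the call was lost without NOD T pool 2 (2.07, adjusted p = 0.0634). On Affy Cd3g was 1.11 ± 0.39 (adjusted p = 0.0811), called without MRL/lpr T pool 1 (1.46, adjusted p = 0.0372).

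Macrophage and dendritic cell markers differed mainly under P. Between P pools 12 of 22 were called on CL and 21 of 29 on Affy, each lower in NOD (medians -1.27 and -1.60), whereas between T pools 4 of 22 and 4 of 29 were called, each higher (medians 0.26 and 0.44). The change in the strain difference was called upward for 13 and 19 of them. Lyz2, the lysozyme of macrophages, read 35.4, 14.0 and 24.8 in the MRL/lpr T pools and 29.8, 45.8 and 37.3 in the NOD T pools on CL, with overlap and no call (0.68 ± 0.31, adjusted p = 0.201; 0.16 ± 0.26, adjusted p = 0.747 on Affy), while under P the differences were -1.91 and -1.75, both called. Fcgr1, the high-affinity receptor for immunoglobulin G, was at least 5.04-fold higher in NOD T on CL (adjusted p = 0.000468), and its Affy value was 1.45 ± 0.51 (adjusted p = 0.0774). The Affy count under T was 1 without NOD T pool 2 or MRL/lpr T pool 2, and 2 without NOD T pool 3.

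Of the markers of cytotoxic and natural killer cells, 7 of 21 were called higher and 2 lower on CL, and 4 of 17 on Affy, each higher. Klra8, an activating receptor of natural killer cells, was at least 4.78-fold higher in NOD T on CL (adjusted p = 7.38e-07) and also higher under P (2.33). The related receptor Klra17 was at least 2.57-fold higher on CL (adjusted p = 0.000507) and at least 6.77-fold on Affy (adjusted p = 0.000326). Klrk1, the activating receptor NKG2D, was at least 2.32-fold higher on CL (adjusted p = 0.000368), and the log2 difference on Affy was 1.68 ± 0.40 (adjusted p = 0.0122), not called without MRL/lpr T pool 3 (1.40, adjusted p = 0.0623) or with the floor halved (adjusted p = 0.0536). Klrg1, an inhibitory receptor, read 6.51, 12.4 and 21.4 in the MRL/lpr T pools and 1.09, 1.01 and 1.08 in the NOD T pools on CL. It was lower in NOD T there (-3.50 ± 0.34, adjusted p = 3.32e-05) and not on Affy (-0.32 ± 0.45, adjusted p = 0.699). The list's count of higher genes was 4 on CL without NOD T pool 2 or MRL/lpr T pool 1, and 2 on Affy without NOD T pool 2, MRL/lpr T pool 1 or MRL/lpr T pool 2. Under P 7 genes of the list were called lower in NOD and 2 higher on CL, and 2 on Affy, each lower.

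Other cell types gave lower signals in NOD T. S100a8, a calcium-binding protein of neutrophils, was near background in all NOD T pools and at least 2.67-fold lower on CL (adjusted p = 0.000401) and 5.96-fold lower on Affy (adjusted p = 0.000238), and lower under P as well (-4.55 and -4.11). The CL call of S100a8 was lost with raw intensities (-0.64, adjusted p = 0.0691). Of the neutrophil markers 3 of 11 were lower and 1 higher on CL, and 4 of 13 on Affy, each lower (2 without MRL/lpr T pool 2 or 3; median 0.32 with signals as deposited). Under P 5 of 11 neutrophil markers were called on CL and 6 of 13 on Affy, each lower in NOD. Adipoq, the adipocyte hormone adiponectin, read 7.66, 9.02 and 10.3 in the MRL/lpr T pools and 0.979, 1.36 and 0.661 in the NOD T pools on CL. All NOD T pools lay below, on CL (-3.22 ± 0.26, adjusted p = 1.05e-05) as well as on Affy (-2.27 ± 0.36, adjusted p = 0.000668), and the P pools differed by -1.89 and -2.01. The adipocyte list had 4 of 10 genes called on CL and 4 of 13 on Affy, each lower (medians -0.39 and -0.61, and 0.35 with Affy signals as deposited). Under P 7 of 10 adipocyte genes were called on CL, each lower in NOD, and 3 of 13 lower and 1 higher on Affy. Mb, the oxygen store myoglobin of muscle, was at least 5.37-fold lower on CL (adjusted p = 2.73e-05), and the log2 difference on Affy was -1.99 ± 0.38 (adjusted p = 0.00305). Of the muscle markers only 2 of 12 on CL and 1 of 16 on Affy were called, each lower. The Affy count was close to the 4.96% of all genes.

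Salivary gland transcripts varied between pools. Amy1, salivary amylase, read 1941, 1708 and 1671 in the MRL/lpr T pools and 62.5, 35.0 and 64.8 in the NOD T pools on Affy, at least 25.1-fold lower in NOD T (adjusted p = 0.0493). A value of 62440 in MRL/lpr P pool 1, against 123 and 148 in the other MRL/lpr P pools, shows how far it varied within a group. The Amy1 call was lost on leaving out any 1 of the 6 T pools, of the 3 NOD P pools or MRL/lpr P pool 3 (-4.69 to -4.58), and with quantile normalization, each array set to its own median, the floor doubled, no filter on dim probe sets or no trend in the variance. On CL Amy1 was not called (-2.02 ± 1.94, adjusted p = 0.579). Of the salivary markers 1 of 6 was called higher and 1 lower on CL, and 1 of 14 higher and 4 lower on Affy. The 1 of 14 higher was close to the 5.71% of all genes. The part of salivary tissue in the secretory differences above was not tested.

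Several enzymes that metabolize foreign and lipid compounds were lower in NOD T. Cyp2f2, a cytochrome P450, read 52.5, 54.0 and 49.1 in the MRL/lpr T pools and 20.8, 18.7 and 20.4 in the NOD T pools on CL, -1.38 ± 0.15 (adjusted p = 0.000112), and was lower on Affy (-1.95 ± 0.21, adjusted p = 1.37e-05). Cyp2e1, another P450, was lower on CL (-1.85 ± 0.25, adjusted p = 0.000368) and at least 5.24-fold on Affy (adjusted p = 0.000736). Gstm1, a glutathione S-transferase, was not called between P pools (0.08 and -0.03) and lower under T on CL (-1.34 ± 0.19, adjusted p = 0.000475) as well as on Affy (-1.54 ± 0.22, adjusted p = 0.000249). Of the P450 genes 7 of 34 were called on CL and 2 of 35 on Affy, and of the glutathione S-transferases and glucuronosyltransferases 5 of 24 and 6 of 22, all of them lower, against 7.08% and 4.96% of all genes. The P450 count on Affy was close to that share. Under P 7 P450 genes were called lower and 1 higher on CL, and 2 lower and 2 higher on Affy. Of the transferases 3 were called lower and 1 higher on CL under P, and 3 on Affy, each lower. Over all genes 5.85% and 4.09% were called lower under P. With Affy signals as deposited the medians of these lists were 1.14 and 1.11. Without MRL/lpr T pool 1 the P450 count on Affy was 5, and the transferase count on CL was 2 without NOD T pool 1 or 2 and 3 without MRL/lpr T pool 1 or 2.

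Some further genes were higher in NOD T on both platforms and stood among the largest such differences. Slpi, an inhibitor of leukocyte proteases, read 12.5, 6.55 and 5.62 in the MRL/lpr T pools and 41.1, 39.3 and 74.6 in the NOD T pools on CL. Slpi was higher by 2.68 ± 0.38 on CL (adjusted p = 0.000555), and the log2 difference on Affy was 2.49 ± 0.26 (adjusted p = 9.27e-06), while P pools overlapped (0.27 and 0.12). Moxd2, a relative of dopamine beta-hydroxylase, read 93.1, 106 and 81.3 in the MRL/lpr T pools and 848, 988 and 1696 in the NOD T pools on Affy. The pools did not overlap, and Moxd2 was 3.59 ± 0.34 on Affy (adjusted p = 2.52e-06) and 2.19 ± 0.25 on CL (adjusted p = 0.000111), with no called difference under P. Gdf5, a growth factor of the bone morphogenetic protein family, was near background in the MRL/lpr T pools, and was at least 4.87-fold higher in NOD T on CL (adjusted p = 3.74e-05) and 7.12-fold on Affy (adjusted p = 2.45e-06).

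Over the gene lists with 10 or more genes tested, the share called higher in NOD T on Affy was largest for the interferon-induced GTPases and the B cell markers, and with the trimmed-mean scaling the share called lower was largest for the ribosomal proteins. That order depended on the scaling. Quantile normalization and cyclic loess left 5 and 4 of 40 ribosomal proteins called lower, against 8 and 9 of 22 acinar and duct markers. With each array set to its own median, 15 of 40 and 3 of 22 were lower. Serpins, which inhibit serine proteases, differed between platforms, with 6 of 16 called on CL, each higher, and 1 higher and 1 lower of 18 on Affy. Cell cycle genes gave 2 of 34 higher and 2 lower on CL and 3 of 43 on Affy, each higher, close to the share over all genes. Single calls against the direction of a list were often lost with 1 pool. The lower call among antiviral genes on CL was lost without any NOD T pool and without MRL/lpr T pool 2 or 3, that among B cell markers without NOD T pool 3, and that among T cell markers without NOD T pool 1. The higher call among neutrophil markers on CL was lost without NOD T pool 2 or 3 or MRL/lpr T pool 1 or 2, and that in fluid secretion on Affy without NOD T pool 3 or MRL/lpr T pool 2 or 3.

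**Figure D5:**
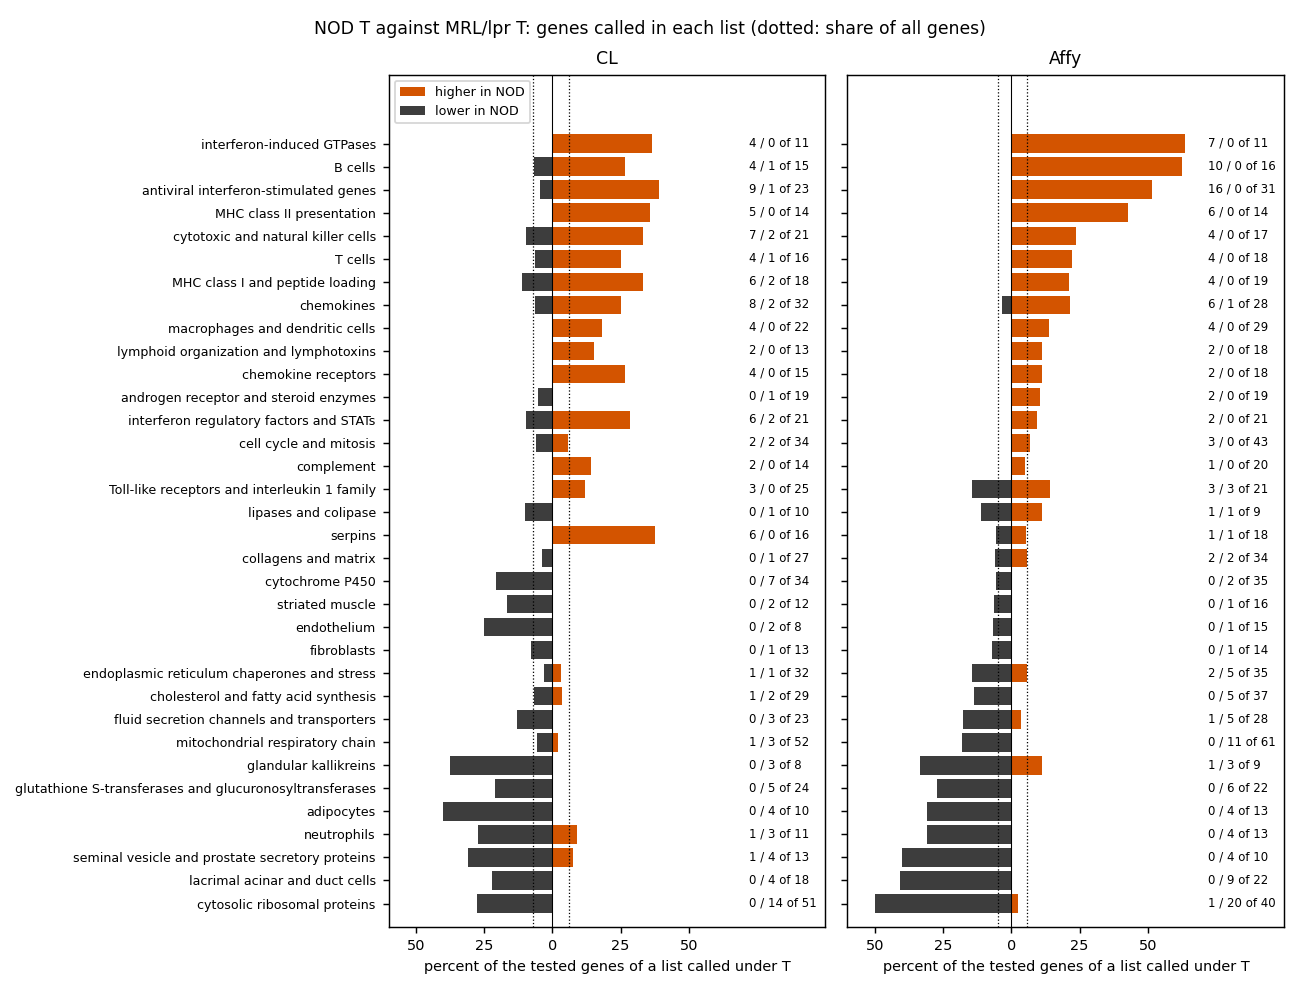
Bars show the percent of the tested genes of each list that were called higher (right) or lower (left) in NOD T than in MRL/lpr T, for CL and Affy, with the numbers higher and lower of those tested at the right and the share over all genes as dotted lines. The interferon-induced GTPases, with 4 of 11 on CL and 7 of 11 on Affy, lie at the top. The ribosomal proteins, with 14 of 51 and 20 of 40 lower under the trimmed-mean scaling, lie at the bottom. On Affy 4 of 40 were lower with cyclic loess and 15 of 40 with each array set to its own median.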

How the data were processed

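Total RNA of pooled exorbital lacrimal glands (3 pools per group, 4 groups) was hybridized by the authors to CodeLink UniSet Mouse 20K I and Affymetrix 430A 2.0 arrays. The deposited CL intensity of a spot is background-subtracted and divided by the array median. The deposited Affy intensity is a linear probe set signal from the authors' Affymetrix software, which the methods and the submitters' notes name differently. A scaling to a trimmed mean of 500 is described, but the deposited arrays are not on it, and each was brought to it (2% of probe sets left out at each end). Affy control probe sets (64) were left out, as were 2847 CL spots outside the value table.

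Values were raised to the floor (0.5, or 70.5 as 0.5 of the Affy median) and log2-transformed. Probes with no group mean above the floor were not tested. limma 3.58.1 (R 4.3.3) fitted 4 group means with trended eBayes over the 12 arrays of a platform, tested NOD T against MRL/lpr T, NOD P against MRL/lpr P and their difference, and adjusted p over all probes. A gene took its brightest probe, and its other probes often were not called. Of the genes called higher with several probes, all probes were called the same way for 5 of 15 on CL and 30 of 303 on Affy. Of those called lower this held for 6 of 27 and 29 of 217. On Affy 12 genes called higher and 6 called lower had a probe set called the opposite way. Symbols came from platform annotation: 11377 CL probes had 1 symbol and 6063 none listed, and 20380 Affy probe sets had 1, 691 several (not named) and 1555 none. Tables and figures used Python 3.11.15 with pandas 2.3.3, numpy 2.4.6, scipy 1.17.1 and matplotlib 3.10.9. The fit was tested on simulated data with no brightness trend, so that trend was not covered. It called 39% of planted log2 differences of 1 on CL and 47% on Affy, and 77% and 100% of those of 2. Of all its calls there 4.9% and 6.4% were false.

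Genes named were the 10 largest called differences per platform and direction and on both platforms, the 5 each way whose change with T was also called on both, up to 4 per list by adjusted p, and the strain check genes. The genes described are a subset of these, taken after their values were seen. H2-Eb1, Tap1, Cxcl13 and Lyz2 fall outside this rule and were chosen after their values were seen. The comparison and lists were chosen with earlier results of these data known. No array duplicated another. The labels do not say that pools come from separate cages or days. Alternatives covered normalization, scaling, floor, filter, variance model, probe choice, the arrays fitted, the methods' t-test, the pool number as a block and leaving out each pool.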

Additional observations from a re-analysis of the deposited data

Results flagged for a closer look

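The named genes below drew attention because the strain difference under T differed from that under P, by limma's test of the difference itself (adjusted p under 0.05) on every platform on which the gene was tested. Each value is the log2 strain difference (NOD minus MRL/lpr) under T minus that under P, first on CL and then on Affy where both are given. Where pools lay below or near the floor, as for Svs2, Svs4 and H2-Ab1 on CL, a shift depends on the floor. No explanation was weighed, and age, length of treatment and pool size differ with the strain.

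Upward shifts were fitted in antigen presentation. They were 1.79 and 2.38 for H2-Ab1, 2.28 and 2.98 for H2-Eb1 and 3.47 and 3.03 for Tap1. Single-platform values were 3.17 on Affy for H2-K1 and 2.56 on CL for H2-T10. Interferon-induced genes and their regulator gave 5.0 and 4.11 for Gbp2, 3.57 and 3.29 for Gbp3, 3.06 and 3.30 for Irgm1, 3.34 and 4.44 for Ifi47, 2.88 and 3.81 for Oasl2 and 3.64 and 1.67 for Irf7. Chemokines and a lymphotoxin gave 4.45 and 5.82 for Cxcl9, 3.93 and 2.36 for Cxcl10, 3.22 and 3.49 for Cxcl13 and 3.26 and 3.66 for Ltb. Markers of B and T cells gave 3.76 and 4.10 for Ms4a1, 3.17 and 3.01 for Cd79b and 4.00 and 2.87 for Cd3g. Receptors and products of myeloid and natural killer cells gave 2.71 and 2.67 for Fcgr1, 2.59 and 1.91 for Lyz2, 1.86 and 2.68 for Klrk1, 2.85 and 2.59 for Klra17 and 1.19 on CL for Klra8. Other genes that shifted upward gave 2.40 and 2.38 for Slpi, 2.43 and 3.59 for Moxd2, 1.74 and 1.78 for Gdf5 and 2.28 and 1.55 for Smr2.

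Downward shifts were fitted in androgen-type and glandular products. They were -6.48 and -5.77 for Ly6f, -3.41 and -3.74 for Svs2, -3.12 and -3.42 for Svs4 and -3.38 and -3.53 for Ggt7. Single-platform values were -9.15 on Affy for Mup5, -3.45 on Affy for Prol1 and -3.82 on CL for Hsd3b5. Tear, mucosal and detoxification proteins gave -2.10 and -2.12 for Car6, -1.83 and -2.49 for Dmbt1 and -1.41 and -1.51 for Gstm1. For Ly6f and Mup5 the strain difference was called in opposite directions under P and T.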

How the results depend on the processing

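The named genes were recomputed under every alternative. Of 2868 such values, 2658 kept their direction and their side of the threshold, 178 lost the call, 23 gained one and 9 reversed. All 9 reversals were Affy values under the signals as deposited, where the median of all probe sets is 1.54: Slc9a3r1 0.89, Hspa5 0.61, Rps9 1.70, H2-Bl 0.88, Azgp1 0.12, Ltf 0.38, Slc12a2 0.16, Gstm1 0.35 and Klrg1 0.63. That setting called 12700 probe sets higher and 32 lower in NOD T, which follows from the unequal brightness of the deposited arrays. With each Affy array set to its own median 475 were lower. With quantile normalization the counts were 841 higher and 839 lower on CL and 864 and 790 on Affy, with cyclic loess (chosen after seeing the data) 888 and 810 on Affy, and with raw CL intensities 892 and 869.

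With the T arrays alone, where 6 arrays give the spread, 484 were higher on CL, and 201 higher and 171 lower on Affy. The methods' t-test called 1642 lower on CL and 1722 lower on Affy unadjusted, and after Benjamini-Hochberg 48 higher and 87 lower on CL and 25 and 33 on Affy. Leaving out 1 pool in turn gave 605 to 786 higher and 729 to 1025 lower on CL, and 624 to 1161 higher and 567 to 1156 lower on Affy, where the lowest came from MRL/lpr T pools 2 (624 higher) and 3 (635 higher and 567 lower) and the highest from NOD T pool 1. With probes of a gene averaged, 5 respiratory chain genes were lower on CL.

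The pool numbers share no stated source, and the labels do not link those of the 2 platforms. Between the platforms, deviations of same-numbered T pools from their group means correlated at 0.1, 0.01 and 0.14 for MRL/lpr and 0.09, 0.12 and 0.02 for NOD. Between the strains, deviations of same-numbered T pools correlated at 0.026, -0.003 and 0.042 on CL and -0.068, -0.065 and 0.046 on Affy, and with the pool number as a replicate block 675 were higher and 852 lower on CL and 915 and 874 on Affy. Signal over background limits the result: 47.1% to 60.9% of CL spots were near background, and with 3 pools a group a gene not called is not shown to be equal.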
